A study of Mus musculus with 2 samples.

Results

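Lipoproteins carry triglycerides and cholesterol through the blood, and the hepatocyte is their main source. It assembles very low density lipoprotein (VLDL) by loading lipid onto apolipoprotein B in the endoplasmic reticulum, and it secretes the apolipoproteins of high density lipoprotein (HDL). Lipases in the vessels then shorten the triglyceride core, and remnants return to the hepatocyte through receptors on its surface. The genes examined here were 32 apolipoproteins, assembly factors, lipases, remodelling proteins and receptors, chosen by their known roles and matched by symbol among the 43280 counted gene symbols. All 32 were found.

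Poly(A) RNA of these genes was measured in 1 library of mature hepatocytes (MHs) and 1 library of small hepatocytes (SHs), both from the liver of C57BL6 mice that the labels give as 20 weeks old. The methods give a younger age range for the mice of the study. Both preparations came from the same animals, more than 1 by the methods (how they were pooled for a library is not stated), by collagenase perfusion, without any treatment or genetic change. MHs were the cells that settled at low speed and were cleared of dead cells on Percoll, with no sort. SHs, which the study uses as hepatocyte progenitors, came from the supernatant of that spin, were also cleared on Percoll and were sorted as CD31-, CD45-, EpCAM- and ICAM-1+ cells. The libraries held 16979136 counted reads for MHs and 42356444 for SHs, so that a floor of 3 reads corresponded to 0.177 reads per 1000000 counted reads (RPM) in MHs and 0.0708 in SHs. With 1 library of each kind there was no replicate and no test between the cell types. Each ratio is given with a 95% exact interval, which covers counting error only.

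Both libraries held hepatocyte RNA at nearly equal levels. The 8 hepatocyte markers summed to 76550 RPM in MHs and 81849 in SHs, and their log2 ratios of SHs over MHs lay between -0.11 and 0.27. Markers of other liver cells differed. The 10 endothelial markers summed to 76.3 RPM in MHs and 4.32 in SHs, the 10 macrophage markers to 22.4 and 1.02, the 10 stellate cell markers to 26.7 and 2.76, and the 8 cholangiocyte markers to 21.4 and 24.4. Leukocyte and adipocyte markers were near 0 in both libraries, with 15 reads over 6 leukocyte genes and 18 over 4 adipocyte genes in MHs, and 7 and 12 reads in SHs.

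The transcripts of plasma lipoproteins made up a large and nearly equal part of both libraries. The 32 genes together took 4.37% of the counted reads in MHs (95% interval 4.36 to 4.38) and 4.13% in SHs (4.12 to 4.13). The 15 apolipoproteins supplied most of this, with 4.10% in MHs and 3.86% in SHs. Apoe, Apob, Apoa1 and Apoa2 alone took 3.42% and 3.20%. The 6 receptors and transporters took 0.166% and 0.167%, the 6 lipases and remodelling proteins 0.0584% and 0.0532%, and the 5 assembly factors 0.0452% and 0.0415%. The log2 ratio of all summed reads was -0.08 (-0.09 to -0.08). Apoe decided part of that value, since the other 31 genes had one of -0.130 (-0.135 to -0.125).

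Per length, the genes spanned over 5 orders of the log10 scale, and their order was nearly the same in both libraries. Lengths came from the union of annotated exons of mm10, and levels are reads per kilobase of exon per 1000000 counted reads (RPKM). In both libraries 13 of the 32 genes had at least 100 RPKM, all of them apolipoproteins but Lcat, which encodes the enzyme that esterifies cholesterol on HDL, with 223 RPKM in MHs and 215 in SHs. Vldlr, the VLDL receptor, which works mainly in muscle, heart and fat, was the lowest gene with reads, at 0.0702 RPKM in MHs and 0.0281 in SHs. Apod, which encodes a lipocalin made mainly outside the liver, had 0 reads in both libraries, which allows a level of up to 0.177 RPM in MHs and 0.0708 in SHs.

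**Figure D1:**
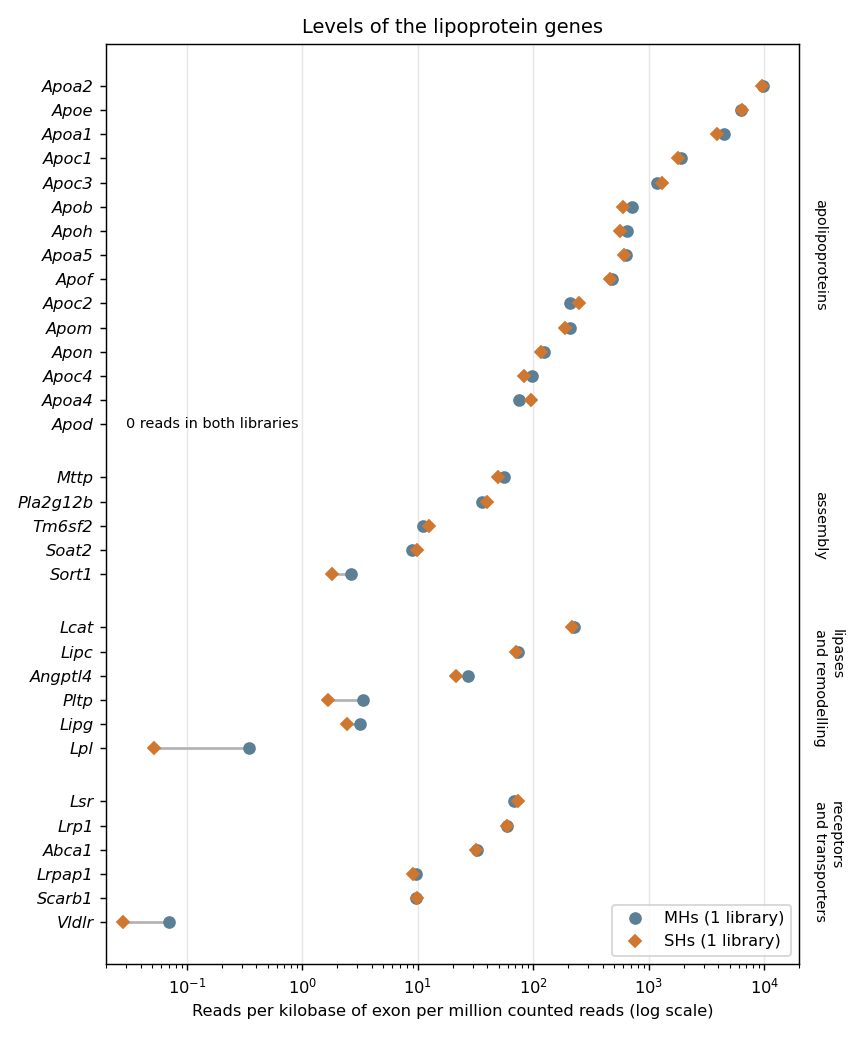
Level of each gene in MHs (circles) and SHs (diamonds), in reads per kilobase of exon per 1000000 counted reads on a log axis, grouped by role and with 1 library each. The symbols overlap for most genes, and the widest gaps are those of Lpl, with 0.343 RPKM in MHs and 0.0518 in SHs, and of Vldlr.

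Differences between the libraries were small for most of these genes and more often toward lower levels in SHs. With a minimum of 10 reads summed over the libraries, 31 genes were measured. The interval of the log2 ratio lay wholly under 0 for 18 and wholly over 0 for 6, and it included 0 for 7. Across all 15521 genes with at least 10 reads, 15.5% had an interval under 0 and 16.8% one over 0. Deeply counted genes have narrow intervals, so a closer background is that of the 5055 genes with at least 1000 reads. There 21.1% lay under 0 and 31.2% over 0, while 13 of the 26 members with that many reads lay under 0 and 6 over 0. This background is not matched for depth either, since the apolipoproteins with reads had 9726 to 810870 of them. The members' median log2 ratio was -0.07, beside 0.02 for all genes with at least 10 reads.

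Sizes tell the genes apart better than sides. A gene was counted as past 1.5-fold only where its ratio was that large and its interval also lay wholly on that side of 0. By this rule 3 of the 31 genes were lower in SHs, namely Lpl, Pltp and Vldlr, and 0 were higher. Of all genes with at least 10 reads, 6.20% were lower and 3.50% higher by the same rule. With 2-fold in place of 1.5-fold, the 3 genes were still counted, beside 4.46% of all genes on the lower and 2.00% on the higher side. All 3 had few reads. From 1000 reads upward, 1.68% of all genes passed 1.5-fold toward lower and 0.870% toward higher levels, and of the 26 members in this range 0 passed it either way. Within this range 24 of 26 members and 89.0% of all genes differed by less than 1.25-fold, and the median size of the log2 ratio was 0.12 for the members and 0.13 for all genes.

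**Figure D2:**
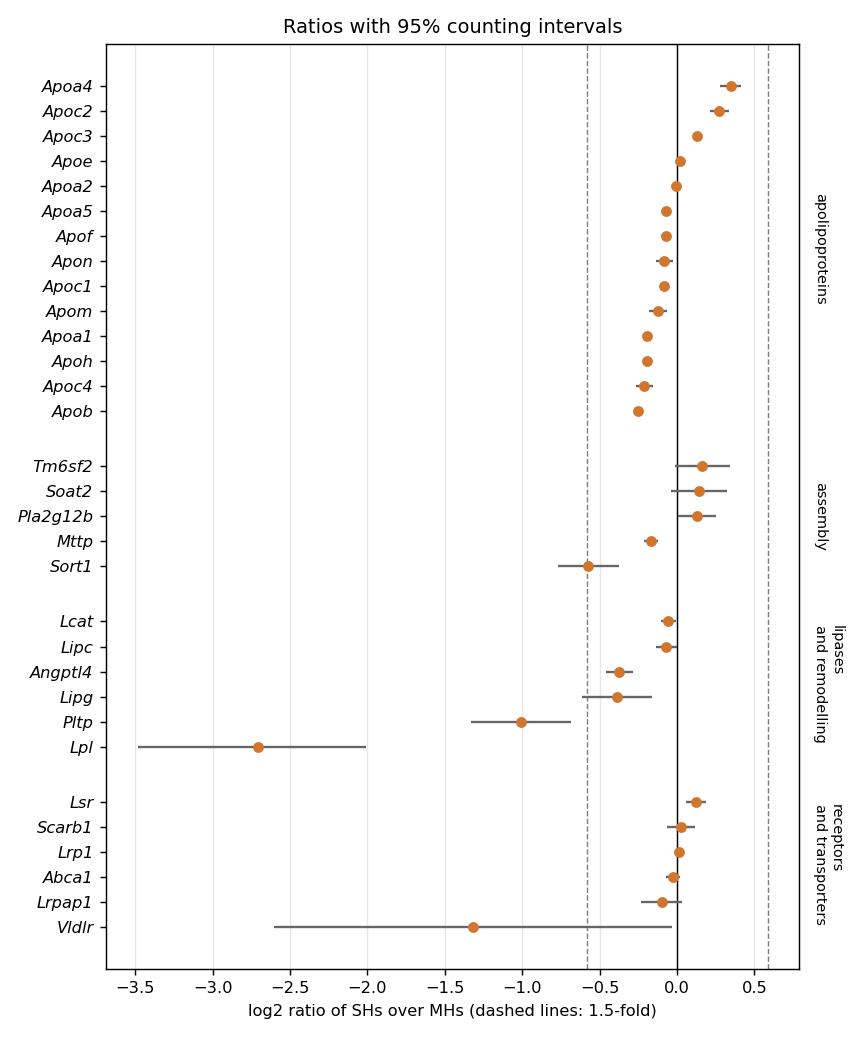
log2 ratio of SHs over MHs for the 31 genes with reads (points), with the 95% exact counting interval (lines) and dashed lines at 1.5-fold. Apolipoproteins lie between -0.25 and 0.35, and the 6 lipases and remodelling proteins all lie under 0, down to -2.71 for Lpl.

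The 14 apolipoproteins with reads showed a spread of directions, with 9 intervals under 0, 4 over 0 and 1 that included 0. All 14 had 1000 reads or more, where the shares over all genes were 21.1% under 0 and 31.2% over 0. These shares do not match the depth of the 14, which had from 9726 (Apoa4) to 810870 (Apoe) reads over both libraries. Deeper counts narrow the interval, so the counts of sides cannot be set against those shares directly. The median size of the log2 ratio was 0.125 for the 14, beside 0.128 for all genes with at least 1000 reads. Counting error adds more to the size of a ratio in genes with fewer reads. These medians are therefore not matched for depth either, and do not show that the 14 differed by as much as other genes. Apob, whose product is the single structural protein of each VLDL and LDL particle, had the lowest ratio among them. It lies at chromosome 12, 7977648 to 8016835 of mm10, and was counted with 168444 reads from MHs and 352492 from SHs. Scaled to depth its level was 9921 RPM in MHs and 8322 in SHs, giving a log2 ratio of -0.25 (-0.26 to -0.25), or a difference in level of -16.1%. Apob and Apoe were among the 10 genes with the most reads over both libraries, and Apoe stood 5th in MHs and 6th in SHs of all gene symbols.

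Apoe, the ligand that returns remnants to hepatic receptors, had nearly the same level in both. It had 229924 reads in MHs and 580946 in SHs, or 13542 and 13716 RPM, a log2 ratio of 0.02 (0.01 to 0.03). This sign depended on how the libraries were scaled, since with TMM or DESeq2 scaling the ratio was 0.00 with an interval that included 0. Within a library no scaling enters. For each 100 reads of Apob there were 136 reads of Apoe in MHs and 165 in SHs, a difference of 0.27 on the log2 scale (0.26 to 0.28, Woolf interval). Pairs of genes compared in this way were chosen with their values known.

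Among the genes of HDL proteins, Apoa1 had a lower ratio than Apoa2. Apoa1, which encodes the main HDL protein and the activator of LCAT, had 93333 reads in MHs and 203442 in SHs, or 5497 and 4803 RPM, a log2 ratio of -0.19 (-0.21 to -0.18). Apoa2, the second HDL protein, was at 5194 RPM in MHs against 5166 in SHs. Its interval of -0.02 to 0.00 included 0, but lay under 0 with TMM scaling and over 0 when the 10 genes with the most reads were left out of the totals. Apoa2 was the highest gene of the 32 per length, with 9672 RPKM in MHs and 9619 in SHs. For each 100 reads of Apoa1, MHs held 94.5 reads of Apoa2 and SHs 107.5, a log2 difference of 0.19 (0.17 to 0.20). Apom, which carries sphingosine 1-phosphate on HDL, had 3550 reads in MHs and 8133 in SHs, giving a log2 ratio of -0.12 (-0.18 to -0.07). Apof, which encodes apolipoprotein F, had 607 RPM in MHs and 577 in SHs, giving a log2 ratio of -0.07 (-0.11 to -0.04). Its neighbor on chromosome 10, Apon, had one of -0.08 (-0.14 to -0.03), whose interval included 0 without those 10 genes. Apoh, which encodes the phospholipid-binding β2-glycoprotein I, had 1027 RPM in MHs and 897 in SHs, giving a log2 ratio of -0.20 (-0.22 to -0.17), and it overlaps Prkca on the opposite strand, which had 178 and 440 reads.

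A cluster on chromosome 9 and one on chromosome 7 hold 8 of the apolipoproteins, and within both the genes differed in direction. Promoter sequence is printed first for the gene with the lowest and the gene with the highest ratio of each cluster, first Apoa1 and Apoa4, then Apoc4 and Apoc2. Each run is the stretch nearest the RefSeq start that overlaps no exon of a protein-coding transcript. It is read 5′ to 3′ on the strand of the gene, from RefSeq on GRCm38.p6, the assembly of mm10. The last base of the run lies 51 bases before the RefSeq start for Apoa1, 149 for Apoa4, 20 for Apoc4 and 1 for Apoc2. The runs thus cover unlike distances from the start. Capitals mark AGGTCA, the half-site that many nuclear receptors bind.
Apoa1, plus strand, chr9:46228480-46228579: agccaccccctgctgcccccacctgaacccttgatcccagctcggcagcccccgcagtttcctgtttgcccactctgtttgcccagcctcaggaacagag
Apoa4, plus strand, chr9:46240596-46240695: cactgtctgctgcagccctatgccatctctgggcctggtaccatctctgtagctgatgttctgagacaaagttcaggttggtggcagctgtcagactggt
Apoc4, minus strand, chr7:19681480-19681599: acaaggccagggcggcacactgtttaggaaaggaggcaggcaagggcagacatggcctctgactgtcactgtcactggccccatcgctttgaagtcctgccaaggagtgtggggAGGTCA
Apoc2, minus strand, chr7:19677942-19678061: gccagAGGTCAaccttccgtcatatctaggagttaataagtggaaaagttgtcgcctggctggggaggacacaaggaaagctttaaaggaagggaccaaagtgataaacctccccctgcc

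The half-site was searched on both strands in the 250 bases before each start. Such windows were used for 22 members, some with more than 1 start, which made 28 windows. Windows on chromosome 18, where Lipg lies, were left out for the members but kept among those of all genes. The half-site was in 6 of the 28, those of Apoa2, Apoc2, Apoc4, Lipc, Apon and Apoh, and in 14.0% of the 32851 windows of all genes. Apoc4 and Apoc2, whose ratios had opposite signs, both held it, and Apoa1 and Apoa4 did not. The TATA box letters TATAAA were in 6 of the 28 windows, from 5 members, Apoa2, Abca1, Apoe, Apoa5 and Apob, and in 12.4% of all windows. A match of letters is a description of the sequence and was not tied to the ratios.

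On chromosome 9, Apoa1, Apoc3, Apoa4 and Apoa5 lie within 40.1 kb between their starts. The ratio was under 0 at both ends and over 0 in the middle. Apoa1 is given above. Apoc3, which slows the clearance of triglycerides by lipoprotein lipase, starts 7.06 kb away and had 20402 reads in MHs and 55596 in SHs. These were 1202 RPM in MHs and 1313 in SHs, giving a log2 ratio of 0.13 (0.10 to 0.15). Apoa4, known for its part in triglyceride secretion and made in mice by both gut and liver, starts 12.1 kb away. It had 2330 reads in MHs and 7396 in SHs, or 137 and 175 RPM, and its log2 ratio of 0.35 (0.28 to 0.42) was the highest of all members. Among genes of 1000 reads or more, 95.4% had a lower ratio than Apoa4. Apoa5, which promotes triglyceride hydrolysis, had 1612 RPM in MHs and 1535 in SHs, giving a log2 ratio of -0.07 (-0.09 to -0.05). For each 100 reads of Apoa1 there were 2.50 reads of Apoa4 in MHs and 3.64 in SHs, a log2 difference of 0.54 (0.47 to 0.61). For Apoc3 over Apoa1 the difference was 0.32 (0.30 to 0.35).

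On chromosome 7, Apoe, Apoc1, Apoc4 and Apoc2 lie on the same strand within 21.2 kb between their starts. Apoc1, whose product also slows the uptake of remnants, had 1408 RPM in MHs and 1326 in SHs, giving a log2 ratio of -0.09 (-0.11 to -0.06). Apoc4 had 4173 reads in MHs and 8994 in SHs, or 246 and 212 RPM, a log2 ratio of -0.21 (-0.26 to -0.16). Its neighbor Apoc2, which encodes the cofactor that lipoprotein lipase needs, had 2861 reads in MHs and 8617 in SHs. These were 169 RPM in MHs and 203 in SHs, giving a log2 ratio of 0.27 (0.21 to 0.33). Reads of Apoc2 per 100 reads of Apoc4 were 68.6 in MHs and 95.8 in SHs, a log2 difference of 0.48 (0.40 to 0.56). A read-through gene, Gm44805, spans both and was not among the counted symbols, so how its reads were divided between Apoc4 and Apoc2 is not known.

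**Figure D3:**
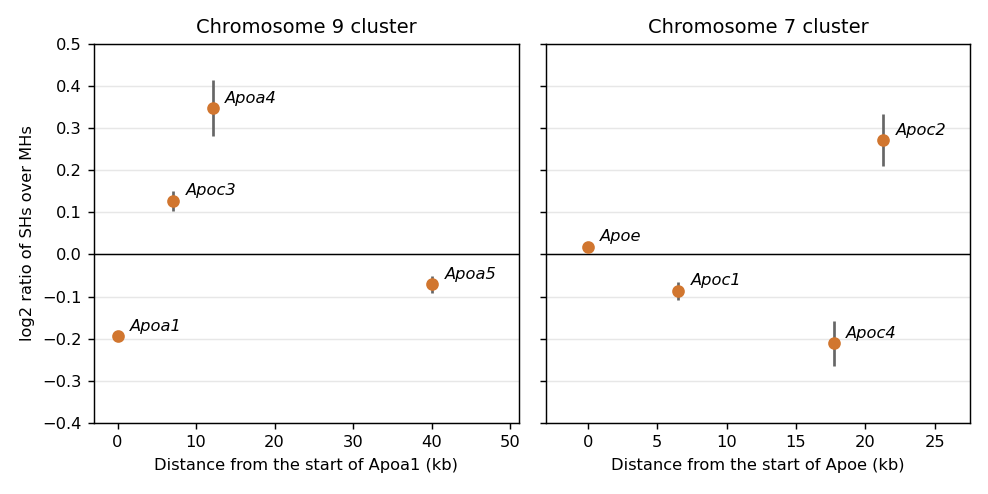
log2 ratio of SHs over MHs (points) with 95% exact counting intervals (lines) against the distance in kb from the start of Apoa1 on chromosome 9 (left) and of Apoe on chromosome 7 (right). Both clusters hold genes on either side of 0, from -0.19 for Apoa1 to 0.35 for Apoa4 and from -0.21 for Apoc4 to 0.27 for Apoc2.

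The 5 genes of assembly and of lipid supply were mixed. Mttp encodes the transfer protein that lipidates apolipoprotein B, without which no VLDL is secreted. Its 5903 reads in MHs and 13102 in SHs were 348 and 309 RPM, a log2 ratio of -0.17 (-0.21 to -0.12). Like Apob, it was lower in SHs, and reads of Mttp per 100 reads of Apob were 3.50 in MHs and 3.72 in SHs, a log2 difference of 0.08 (0.04 to 0.13). Pla2g12b and Tm6sf2, both needed for full lipidation of VLDL, were not lower. Pla2g12b had 726 reads in MHs and 1980 in SHs, giving a log2 ratio of 0.13 (0.00 to 0.25), and this interval included 0 under TMM scaling. Tm6sf2 was counted 359 times in MHs and 1002 times in SHs. Its interval of -0.01 to 0.34 included 0, but lay over 0 without the 10 genes with the most reads.

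Soat2, which esterifies cholesterol for secretion, had 338 reads in MHs and 930 in SHs, with an interval of -0.04 to 0.33. Sort1 encodes sortilin, which binds apolipoprotein B in the Golgi and sends part of it to lysosomes. It had 342 reads in MHs and 574 in SHs, or 20.1 and 13.6 RPM. The log2 ratio of -0.57 (-0.77 to -0.37) was the lowest of this group and just short of 1.5-fold, which it passed under TMM scaling with -0.60. Summed over the 5 genes the log2 ratio was -0.12 (-0.16 to -0.08), and Mttp decided its sign, since it was 0.03 without Mttp.

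Lipases and remodelling proteins were all lower in SHs, with 6 of 6 intervals under 0 (4 of 6 when the 10 genes with the most reads were left out of the totals), but by very different sizes. Of all genes with at least 10 reads, 15.5% lay under 0. Lipc, the hepatic lipase, had 2716 reads in MHs and 6462 in SHs, or 160 and 153 RPM, a log2 ratio of -0.07 (-0.13 to 0.00). Lcat had 5089 reads in MHs and 12200 in SHs, giving a log2 ratio of -0.06 (-0.10 to -0.01). These are differences in level of -4.64% and -3.91%. Both intervals included 0 when the 10 genes with the most reads were left out of the totals. That of Lcat also included 0 when the SH library was thinned to the depth of the MH library.

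Angptl4, a secreted inhibitor of lipoprotein lipase that is induced by fasting, had 1651 reads in MHs and 3180 in SHs. These were 97.2 RPM in MHs and 75.1 in SHs, giving a log2 ratio of -0.37 (-0.46 to -0.29). Of genes with at least 1000 reads, 4.21% had a lower ratio. Lipg, the endothelial lipase that acts on HDL, had 253 reads in MHs and 482 in SHs, or 14.9 and 11.4 RPM, a log2 ratio of -0.39 (-0.61 to -0.16).

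Pltp and Lpl stood apart. Pltp, which moves phospholipids between particles, had 146 reads in MHs and 181 in SHs, or 8.60 and 4.27 RPM. Its log2 ratio was -1.01 (-1.33 to -0.68), a level 2.01-fold lower in SHs. Pltp overlaps Ctsa on the opposite strand, which had 1600 and 3829 reads, and whether strand entered the counting is not stated. Lpl, the lipoprotein lipase that adult hepatocytes hardly express, had 61 reads in MHs and 23 in SHs. These were 3.59 RPM in MHs and 0.543 in SHs, giving a log2 ratio of -2.71 (-3.49 to -2.01), 6.53-fold lower in SHs.

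The markers of other cells moved in the same direction as these genes. Of the endothelial markers with at least 10 reads, 9 of 9 were past 1.5-fold on the lower side in SHs, as were 8 of 9 macrophage markers and 9 of 9 stellate cell markers, beside 6.20% of all genes. The summed level was 17.7-fold lower in SHs for endothelial cells, 22.0-fold for macrophages and 9.66-fold for stellate cells. In SHs Lyve1 and Marco had 0 reads, Oit3 had 1 and Dnase1l3 had 4. MHs held 14 reads of Lyve1, 106 of Oit3 and 204 of Dnase1l3, but only 3 of Marco, which is at the floor. Of the 4 adipocyte markers, Adipoq and Plin1 were at 0 reads in MHs, Cfd had 4 reads in each library, and Fabp4 had 14 reads in MHs against 4 in SHs. The part of these cells in the ratios of Lpl, Pltp, Lipg and Vldlr was not tested. In RNA from many cells, fewer cells of a type and less RNA per cell cannot be told apart, and the sort, made for SHs and not for MHs, cannot be told apart from the cell type either.

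**Figure D4:**
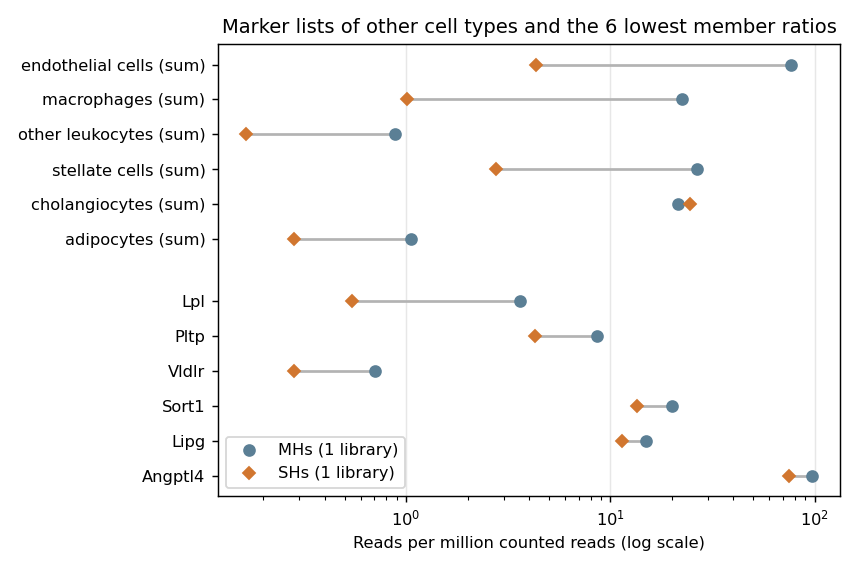
Summed level of the markers of 6 other cell types (upper rows) and the level of the 6 members with the lowest ratios (lower rows) in MHs (circles) and SHs (diamonds), in reads per 1000000 counted reads on a log axis. Endothelial, macrophage and stellate sums are lower in SHs by 17.7-fold, 22.0-fold and 9.66-fold, Lpl is lower by 6.53-fold and Pltp by 2.01-fold, and the cholangiocyte sum is near equal.

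Receptors and transporters of the hepatocyte surface were nearly the same in both libraries. Lrp1, the large receptor that takes up remnants, had 17840 reads in MHs and 44831 in SHs, or 1051 and 1058 RPM, with an interval of -0.01 to 0.04 that lay over 0 without the 10 genes with the most reads. Lrpap1, the chaperone that keeps LRP1 free of ligands on its way to the surface, had 39.8 RPM in MHs and 37.1 in SHs, with an interval of -0.23 to 0.03. Scarb1, the HDL receptor SR-BI that takes up cholesteryl esters, had 81.6 RPM in MHs and 83.0 in SHs, with an interval of -0.07 to 0.11. Abca1, which exports cholesterol to lipid-poor apolipoprotein A-I and so starts HDL, had 340.0 RPM in MHs and 333.5 in SHs, with an interval of -0.07 to 0.02.

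The intervals of these 4 genes leave room for differences of at most 0.23 on the log2 scale in counting error. Under TMM scaling the interval of Abca1 lay under 0, at -0.09 to -0.01. Lsr, a receptor active on triglyceride-rich particles and also a protein of tricellular junctions, was higher in SHs. It had 2495 reads in MHs and 6780 in SHs, or 147 and 160 RPM, a log2 ratio of 0.12 (0.06 to 0.19). Vldlr had 12 reads in each library, a log2 ratio of -1.32 with an interval of -2.60 to -0.04, and the interval included 0 when the SH library was thinned to the depth of the MH library.

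A further list of 64 genes of lipoprotein metabolism was counted in the same way. Of the 61 with at least 10 reads, 28 had an interval under 0 and 10 one over 0, 9 were past 1.5-fold on the lower side with an interval under 0, and 0 on the higher side. The shares over all genes were 15.5% and 16.8% for the intervals and 6.20% and 3.50% past 1.5-fold. The median log2 ratio of the list was -0.06.

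Pon1 encodes the paraoxonase carried on HDL. It was the 1 gene of that list with 1000 reads or more that passed 1.5-fold. It had 6011 reads in MHs and 8853 in SHs, or 354 and 209 RPM, a log2 ratio of -0.76 (-0.81 to -0.71). Angptl8, counted under its older symbol Gm6484 and named after its value was seen, is a secreted protein that takes part in the control of lipoprotein lipase. It had 252 RPM in MHs and 194 in SHs, giving a log2 ratio of -0.38 (-0.43 to -0.32), beside -0.37 for Angptl4.

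Some of the 9 lower genes are known from the vessel wall. The scavenger receptors Stab1 and Stab2, which mark sinusoidal endothelium (Stab2 was also among the 10 endothelial markers), had log2 ratios of -5.25 (-6.13 to -4.57) and -2.82 (-3.14 to -2.52). The fatty acid and lipoprotein receptor Cd36 had 181 reads in MHs and 117 in SHs, giving a log2 ratio of -1.95 (-2.30 to -1.60). Gpihbp1, the endothelial protein that holds lipoprotein lipase on the vessel wall, had 98 reads in MHs and 2 in SHs, giving a log2 ratio of -6.62 (-10.0 to -5.04). The others were Abcg1, Mylip, Lcn2 and Cidec, which like Gpihbp1 are named after their values were seen and had between 10 and 130 reads over both libraries.

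The 12 transcription factors of the list had a median log2 ratio of 0.02. Hnf4a, the nuclear receptor that many apolipoprotein genes depend on, had 633 RPM in MHs and 649 in SHs, giving a log2 ratio of 0.04 (0.00 to 0.07), whose interval included 0 under TMM scaling. Of the 12 factors, 2 had an interval under 0, 4 one over 0, and 0 were past 1.5-fold in either direction. All 12 had 1000 reads or more, and among all such genes 21.1% lay under 0, 31.2% over 0, and 1.68% and 0.870% past 1.5-fold.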

How the data were processed

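Libraries of poly(A) RNA were read on an Ion Proton. The authors deposited raw read counts per gene symbol, without normalization. Their methods describe alignment to mm10 in CLC Genomics Workbench with several hits allowed per read and RPKM values. The program, annotation and strand setting behind the deposited counts are not given in the sources used here, so reads of overlapping or similar genes are uncertain. Groups came from the sample titles. The members and lists were chosen with earlier results of these data known.

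RPM was the count per 1000000 counted reads. The log2 ratio used 0.5 added reads, and its 95% Clopper-Pearson interval the share of reads in the SH library, without added reads. Genes were summarised from 10 reads in sum. A gene past 1.5-fold also had to have an interval wholly on that side of 0. Ratios of a pair of genes have a Woolf interval. Reads carried no molecular identifiers, so intervals cover counting error only. Depths of 16979136 and 42356444 reads set the floors. Exon lengths came from GENCODE M21, and 2 listed genes were matched by older symbols. Named were all members, listed further genes past 1.5-fold with at least 200 reads, and Hnf4a. Some further genes that the rule names are not reported here. Python 3.11.15, numpy 2.4.6, pandas 2.3.3, scipy 1.17.1, edgeR 4.0.16 (TMM) and DESeq2 1.42.0 (size factors) in R 4.3.3 were used. The calculation was checked on simulated counts. Alternatives were other scalings, 2 added reads, other read minimums, a 2-fold threshold, thinning of the SH library, and transcript length.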

Additional observations from a re-analysis of the deposited data

How the results depend on the processing

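No paired analysis was possible because each cell type had 1 library. TMM and DESeq2's size factors lowered every log2 ratio by 0.02, and totals without the 10 genes with the most reads raised every one by 0.03. Under these 3 scalings in that order, the ratio of the summed reads was -0.105, -0.105 and -0.051 for all members, -0.108, -0.107 and -0.053 for apolipoproteins, and -0.012, -0.011 and 0.042 for receptors and transporters, where the main interval included 0. The ratio of Apoe changed sign, to -0.0043 with TMM and -0.0039 with DESeq2, as the shift was larger than the ratio. Without the member with the most reads, the summed ratio was -0.13 for all members, -0.139 for apolipoproteins, -0.221 for lipases and remodelling, and 0.027 for assembly, where the sign turned. With at least 200 reads, 1 member, Pltp, was 1.5-fold lower in place of 3, and 4 further genes in place of 9, because fewer genes enter. The numbers of members with an interval under and over 0 lay between 15 and 20 and between 4 and 9 over all alternatives. With 2 reads added, 39 of 39 single ratios stayed within their intervals. Depth limits Lpl, Vldlr and Pltp most, whose intervals are the widest.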
